A study of Homo sapiens with 24 samples.

Results

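The 47 genes described here encode the proteins that license origins of replication, copy DNA and carry cells from G1 into S phase. The genes were chosen by name, with earlier results of these data known. Measured brightness entered only in the choice of a probe set for each. Where several annotated probe sets read a gene, the brightest on average across the arrays was used, and they are 47 of the 19775 genes that had a probe set of their own. All 47 were bright enough to be tested in both cell lines. The arrays, 24 Affymetrix HG-U133 Plus 2.0 chips, measured RNA from VCaP and LNCaP, human prostate cancer lines that grow in response to androgen. VCaP cells, which carry a TMPRSS2 to ERG gene fusion, were given small interfering RNA that targets the transcription factor ERG (siERG) or control RNA (siControl). LNCaP cells, which carry a rearranged ETV1, were given short hairpin RNA that targets ETV1 (shETV1) or a control hairpin (shControl, written siControl in some labels). RNA interference ran for 24 h, and after 2 days without hormone the cells were kept for 16 h with 10 nM dihydrotestosterone (DHT, an androgen) or with ethanol (EtOH), its vehicle. The 8 groups were therefore siERG with DHT, siERG with EtOH, siControl with DHT and siControl with EtOH in VCaP, and shETV1 with DHT, shETV1 with EtOH, shControl with DHT and shControl with EtOH in LNCaP, each with 3 arrays (A, B and C) that the design text calls biological replicates. All groups, the EtOH controls included, were thus deprived of hormone first, and ERG and ETV1 were never lowered in the same line.

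A eukaryotic genome is copied from many origins, and each origin must be licensed in G1 before it can fire once in S phase. The origin recognition complex (ORC) binds DNA and, with CDC6 and CDT1, loads the ring of MCM2 to MCM7, which becomes the engine of the replicative helicase once CDC45 and the GINS proteins join it. Primase and DNA polymerase alpha then start each strand, the clamp PCNA is loaded by replication factor C (RFC), and polymerases delta and epsilon extend the strands. Cyclin E and the transcription factor E2F1 drive the step from G1 into S phase, and many replication genes are known targets of E2F factors.

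The knockdowns and the hormone were visible in their marker genes. ERG had an intensity of 536 to 592 on the 6 siERG arrays, against 950.2 to 1204 on the 6 siControl arrays, and fell by 0.82 ± 0.06 on the log2 scale with EtOH and by 1.09 ± 0.06 with DHT. ETV1 lay between 714 and 892 on the 6 shETV1 arrays, against 1029.8 to 1326 on the 6 shControl arrays. KLK3, the androgen-induced gene of prostate-specific antigen, rose with DHT by 0.54 ± 0.06 in siERG and 0.61 ± 0.06 in siControl cells, and by 3.28 ± 0.07 in shETV1 and 2.47 ± 0.07 in shControl cells. Of 7 prostate epithelial genes, KRT8, KRT18, HOXB13, KLK3, EPCAM and CDH1 lay above the array median on all 24 arrays, and KRT19 did so on 12 of 12 VCaP and 6 of 12 LNCaP arrays. Of 11 markers of leukocytes, fibroblasts, endothelium, muscle and basal cells only 2, COL1A1 and ACTA2, lay above it on all 24. Changes below are differences of log2(intensity + 16) with the standard error of a limma fit to the 12 arrays of a line, p-values are adjusted by the Benjamini-Hochberg method across every gene tested (12850 in VCaP, 12809 in LNCaP), and a gene is said to rise or fall only with an adjusted p below 0.05. The number of arrays, 3 per group, limits the precision of every value. The sources used here do not give the authors' scaling of the arrays, so a change is one relative to the rest of the array.

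The most frequent change of the replication genes was a fall with DHT in VCaP. The median intensity of the 47 genes was 494 to 542 on the 3 arrays of siERG cells with DHT, against 659 to 716 with EtOH, and 469 to 533 on those of siControl cells with DHT, against 767 to 828 with EtOH. In LNCaP the same median lay between 462 and 499.9 in shETV1 cells with DHT, 454 to 474 in shETV1 cells with EtOH, 398 to 437 in shControl cells with DHT and 393 to 479 in shControl cells with EtOH, so within each set of cells the DHT arrays overlapped the EtOH arrays, while all shETV1 arrays lay above all shControl arrays with DHT. In VCaP siERG cells 22 of the 47 genes (46.8%) fell with DHT and 4 rose, where 25.3% of all genes tested fell and 20.1% rose. In siControl cells 26 (55.3%) fell and 3 rose, where 25.5% of all genes fell and 19.6% rose. In LNCaP shETV1 cells 2 fell and 14 rose with DHT, where 19% of all genes fell and 18.9% rose. In shControl cells 6 fell and 9 rose, where 22.3% of all genes fell and 18.6% rose. These are RNA levels of whole cultures, in which fewer cells in S phase and less RNA per cell cannot be told apart.

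**Figure D1:**
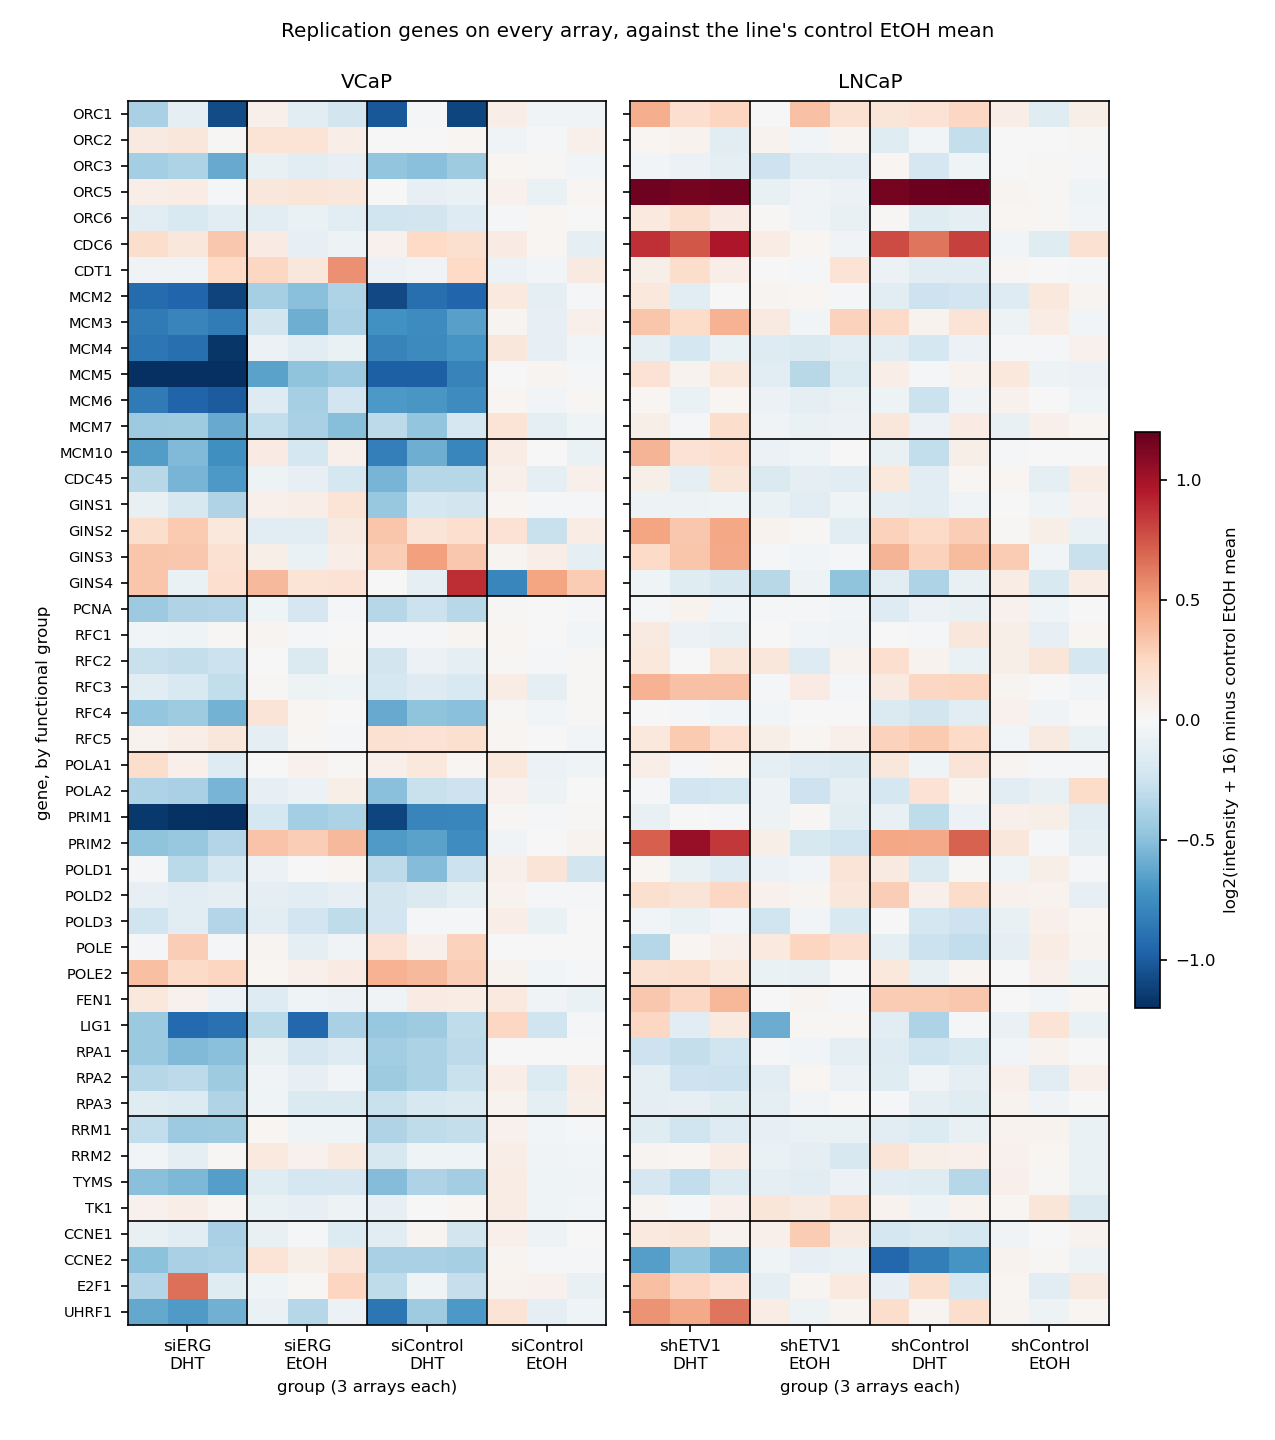
Each cell is the log2(intensity + 16) of 1 gene (rows, grouped by function) on 1 array (columns, 3 per group) minus the gene's mean on the control EtOH arrays of its line, with red for higher and blue for lower values. In VCaP (left) the rows of MCM2 to MCM6, PRIM1 and UHRF1 are blue on all 6 DHT arrays, and in LNCaP (right) the rows of ORC5, CDC6 and PRIM2 are red on all 6 DHT arrays.

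The genes of the MCM helicase fell in both sets of VCaP cells. In siERG cells 5 of the 6 genes from MCM2 to MCM7 fell with DHT, with a median change over the 6 of -0.62 log2 units, against -0.20 over the 47 genes and -0.03 over all genes tested. MCM4 had intensities of 1117, 1089.7 and 902 with DHT, against 1946, 1862 and 1943 with EtOH, a fall of 0.88 ± 0.08 (adjusted p = 1.05e-05). MCM5 had 339, 309.5 and 283 with DHT and 526, 589 and 609 with EtOH (-0.86 ± 0.08, adjusted p = 7.41e-06). MCM6 had 1118, 1029 and 1004 with DHT and 1816, 1529.5 and 1722 with EtOH (-0.68 ± 0.06, adjusted p = 1.08e-05). For these 3 genes the highest DHT array lay far below the lowest EtOH array. MCM2 fell by 0.57 ± 0.08 and MCM3 by 0.43 ± 0.08, while MCM7 changed by -0.09 ± 0.09 and did not pass (adjusted p = 0.461).

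**Figure D2:**
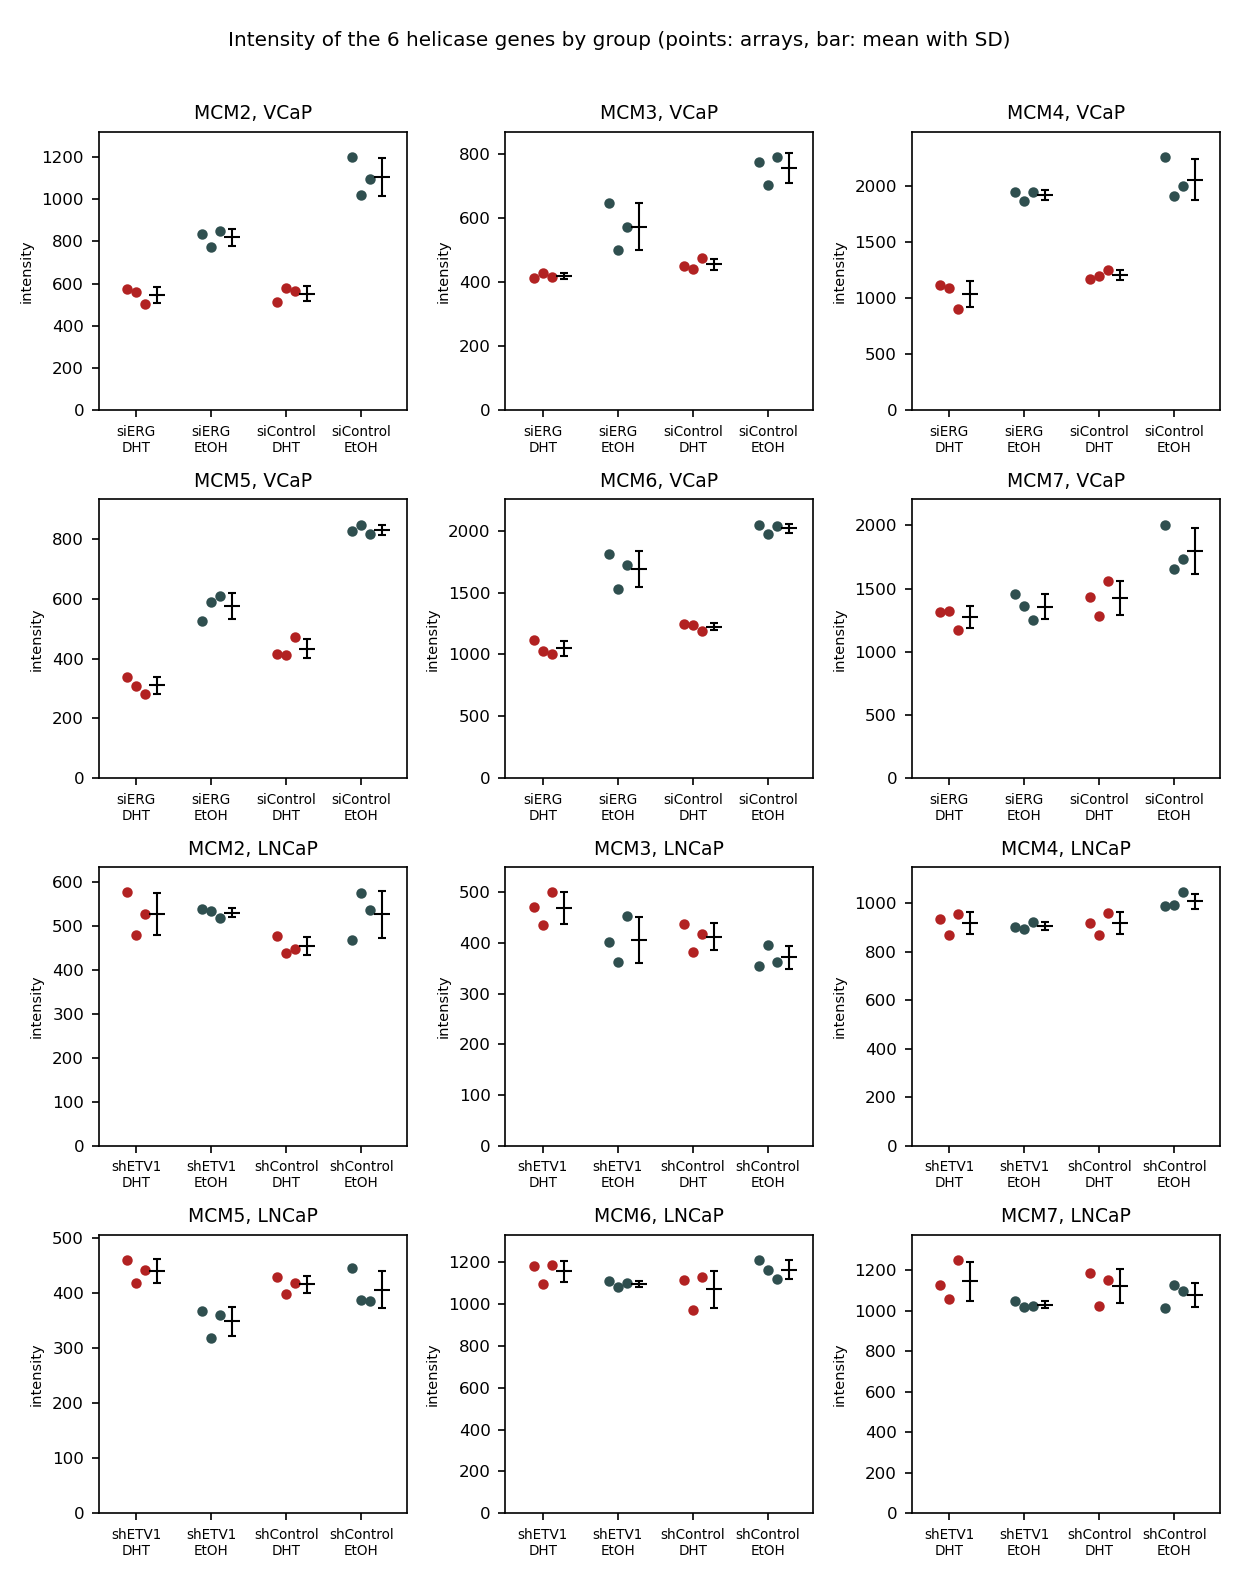
Intensity (vertical axes, linear and starting at 0) of MCM2 to MCM7 in the 4 groups of VCaP (upper 6 panels) and LNCaP (lower 6 panels). Points are arrays, red with DHT and dark with EtOH, and the bar beside them is the mean with SD (n = 3). For MCM2 to MCM6 in VCaP no DHT array reaches an EtOH array of the same cells, and MCM7 shows a smaller step in siControl cells only.

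In siControl cells all 6 genes fell with DHT, with a median change of -0.74, against -0.30 over the 47 genes and -0.03 over all genes. MCM2 had 513, 581 and 563 with DHT, against 1199.9, 1021 and 1094 with EtOH, a fall of 0.98 ± 0.08 (adjusted p = 2.33e-06). MCM5 had 415, 414 and 471 with DHT and 828, 848 and 817 with EtOH (-0.92 ± 0.08, adjusted p = 4.41e-06). Every DHT array of both genes lay far below every EtOH array. MCM4 had 1165, 1198 and 1251 with DHT and 2255, 1907 and 2001 with EtOH (-0.76 ± 0.08, adjusted p = 3.22e-05). MCM6 had 1245, 1239.8 and 1189 with DHT and 2049, 1977 and 2036 with EtOH (-0.72 ± 0.06, adjusted p = 7.10e-06), and again the groups were far apart. MCM3 fell by 0.71 ± 0.08, and MCM7, the helicase gene that changed least, by 0.33 ± 0.09 (adjusted p = 0.0146). The MCM7 call was lost without siControl EtOH array A (-0.25, adjusted p = 0.0597) or siControl DHT array B (-0.26, adjusted p = 0.0585). The falls of MCM2 to MCM6 in siERG and siControl cells passed under every alternative setting in which the gene could be tested. MCM2, read by 1 probe set ending in _s_at, could not be tested without such probe sets.

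RNA quality differed slightly between the groups. The GAPDH 3′ to 5′ ratio, a measure of RNA quality on the array, was 1.03 ± 0.00728 with DHT and 1.09 ± 0.0237 with EtOH in siERG cells, and 1.07 ± 0.00805 with DHT and 1.05 ± 0.0128 with EtOH in siControl cells (SD, n = 3 each, exact permutation p = 0.1 in both, the smallest that 3 against 3 arrays allow). With DHT it was lower than with EtOH in siERG cells and higher in siControl cells. With this ratio as a covariate 15 of the 47 genes fell in siERG cells and none rose, with MCM7 then among the genes that fell (-0.52, adjusted p = 0.0196). Counts over all genes in that fit are not given here, so a shift of the members cannot be told from a shift of all calls. The siERG calls of 12 genes were lost in that fit, namely CDC6, MCM10, GINS1, GINS3, PCNA, RFC2, RFC3, RFC5, POLA2, POLE2, RPA2 and UHRF1 (adjusted p = 0.0533 for RPA2 to 0.474 for CDC6). In siControl cells MCM7 (-0.18, adjusted p = 0.0803), RFC3 (adjusted p = 0.164) and RPA3 (adjusted p = 0.189) no longer passed.

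Of the other licensing genes, ORC3, a subunit of the origin recognition complex, fell with DHT in VCaP by 0.35 ± 0.06 in siERG and 0.47 ± 0.06 in siControl cells. ORC6, another subunit, changed by -0.03 ± 0.04 in siERG cells without passing and fell by 0.21 ± 0.04 in siControl cells. CDC6, which with CDT1 brings the MCM ring to ORC, did not follow the helicase genes. It rose by 0.25 ± 0.08 in siERG cells (adjusted p = 0.0263), a call that was lost without siERG EtOH array B or C or siERG DHT array A or C (adjusted p = 0.0528 to 0.091), and changed by 0.16 ± 0.08 in siControl cells without passing (adjusted p = 0.121). CDT1, ORC1, ORC2 and ORC5 passed in neither set of VCaP cells. ORC1 had scattered values, 48, 112 and 44.4 in siControl cells with DHT, against 121, 111 and 110.1 with EtOH, and its change of -0.72 ± 0.29 did not pass (adjusted p = 0.0633), with DHT array B among the EtOH values.

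Start sites of many replication genes carry words that E2F factors are known to bind, and the promoters of 3 helicase genes that fell are shown for that reason. RefSeq promoters (GRCh38.p14, 250 bases before to 50 after a start site) were at hand for 40 of the 47 genes, MCM4 and MCM5 not among them. Each was searched on both strands for TTTCCCGC, TTTGGCGC, TTTCGCGC and TTTGCCGC, common forms of the E2F word, which are in capitals below.
MCM2 (chr3:127598161-127598460, plus strand): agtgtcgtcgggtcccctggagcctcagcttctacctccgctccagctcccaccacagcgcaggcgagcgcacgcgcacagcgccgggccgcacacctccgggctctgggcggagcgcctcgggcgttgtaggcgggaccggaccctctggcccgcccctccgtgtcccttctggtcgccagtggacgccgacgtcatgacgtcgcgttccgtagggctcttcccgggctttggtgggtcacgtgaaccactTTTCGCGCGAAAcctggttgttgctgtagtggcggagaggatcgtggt
MCM3 (chr6:52284693-52284992, minus strand): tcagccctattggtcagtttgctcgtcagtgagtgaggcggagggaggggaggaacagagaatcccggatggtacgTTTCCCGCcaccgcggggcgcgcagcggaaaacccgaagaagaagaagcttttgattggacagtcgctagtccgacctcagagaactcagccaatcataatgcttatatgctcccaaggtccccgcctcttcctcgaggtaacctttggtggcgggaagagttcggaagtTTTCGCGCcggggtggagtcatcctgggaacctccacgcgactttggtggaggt
MCM6 (chr2:135876394-135876693, minus strand): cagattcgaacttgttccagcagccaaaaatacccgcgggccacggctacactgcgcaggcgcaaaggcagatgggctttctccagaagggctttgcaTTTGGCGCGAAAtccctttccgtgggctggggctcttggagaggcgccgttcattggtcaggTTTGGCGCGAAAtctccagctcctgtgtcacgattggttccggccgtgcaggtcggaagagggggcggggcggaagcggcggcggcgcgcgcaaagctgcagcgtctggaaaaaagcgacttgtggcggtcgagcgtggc

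In MCM2 a match on each strand overlaps just after the start site, MCM3 has a match upstream and one at the start site, and MCM6 has 4 matches in 2 places, each place reading TTTGGCGC on the strand of the gene and TTTCGCGC on the other. MCM7, which is not shown, has a window with 2 matches and others with none. At least 1 such word was in 20 of the 40 genes, against 3.99% of the 27305 genes in the RefSeq promoter table, or in 21 of 51 member promoters (41.2%) against 3.31% of 35116. Among members with a promoter, it was in 11 of the 21 genes that fell with DHT in VCaP siControl cells (52.4%) and in 9 of the 19 that did not fall (47.4%). CCAAT, the box bound by the factor NF-Y, was in 60.8% of the member promoters and 34.6% of all. A match describes the letters of a window and is neither a shown binding site nor a cause.

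Among the factors that turn the loaded ring into an active helicase, MCM10, CDC45 and GINS1 fell and GINS3 rose with DHT in VCaP. MCM10 had 171, 191 and 163 with DHT, against 303, 242 and 296 with EtOH, in siERG cells, a fall of 0.63 ± 0.10 (adjusted p = 3.20e-04, and 0.0612 once the GAPDH ratio was a covariate). In siControl cells it had 153, 183 and 158 with DHT and 301, 281 and 267 with EtOH, a fall of 0.73 ± 0.10 (adjusted p = 1.15e-04). Neither pair of groups overlapped, and the other 2 probe sets of MCM10 had the same sign in both. Without probe sets ending in _x_at or _s_at the siControl call of MCM10 was lost (-0.38, adjusted p = 0.0941). CDC45 fell by 0.40 ± 0.10 in siERG and 0.41 ± 0.10 in siControl cells, and GINS1 by 0.32 ± 0.08 and 0.30 ± 0.08. GINS3, in the same complex as GINS1, rose by 0.25 ± 0.08 in siERG cells and by 0.37 ± 0.08 in siControl cells (adjusted p = 0.0199 and 0.00251). The siERG call of GINS3 was lost without siERG EtOH array B or siERG DHT array A or B (adjusted p = 0.0635 to 0.0785). GINS2 and GINS4 did not pass, and in this comparison GINS4 had the widest error of the 47 genes (0.26 ± 0.33 in siControl cells).

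Both primase genes fell with DHT in VCaP. PRIM1, the catalytic subunit, had 231, 226 and 215 with DHT, against 458, 397 and 406 with EtOH, in siERG cells (-0.86 ± 0.08, adjusted p = 1.33e-05). In siControl cells PRIM1 had 239, 301 and 303 with DHT and 539, 524 and 539 with EtOH (-0.89 ± 0.08, adjusted p = 1.00e-05). All 6 DHT arrays thus lay below all 6 EtOH arrays. PRIM2, the other subunit, had 155, 159 and 171 with DHT and 287, 278 and 299 with EtOH in siERG cells (-0.78 ± 0.05, adjusted p = 6.03e-07), with groups far apart, and in siControl cells it fell by 0.69 ± 0.05 (adjusted p = 1.38e-06). POLA2, the accessory subunit of polymerase alpha, fell by 0.41 ± 0.08 in siERG and 0.34 ± 0.08 in siControl cells, whereas POLA1, the catalytic subunit, changed by 0.02 ± 0.08 and 0.07 ± 0.08 and did not pass. Of the polymerase delta genes, none passed in siERG cells, and POLD1 (fall of 0.36 ± 0.11) and POLD2 (fall of 0.17 ± 0.04) passed in siControl cells, POLD1 not without siControl EtOH array A or B or siControl DHT array B (adjusted p = 0.0618 to 0.0748). POLE2, a subunit of polymerase epsilon, rose by 0.22 ± 0.05 in siERG cells (adjusted p = 0.00428) and 0.37 ± 0.05 in siControl cells (adjusted p = 1.39e-04), while the catalytic subunit POLE changed by 0.13 ± 0.09 and 0.17 ± 0.09 and did not pass.

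The clamp PCNA fell with DHT in VCaP by 0.29 ± 0.05 in siERG and 0.31 ± 0.05 in siControl cells. Of the 5 clamp loader genes RFC4 fell most, by 0.55 ± 0.06 and 0.53 ± 0.06 (adjusted p = 2.07e-05 and 2.66e-05). RFC2 fell by 0.22 ± 0.06 in siERG cells (adjusted p = 0.00871) and changed by -0.14 ± 0.06 in siControl cells without passing, and RFC1 passed in neither. RFC3 fell by 0.17 ± 0.06 and 0.18 ± 0.06, calls that were lost without any 1 of 5 siERG arrays (EtOH A, B or C, DHT B or C) or of 4 siControl arrays (EtOH A or C, DHT A or C), with adjusted p = 0.0591 to 0.112. RFC5 rose by 0.12 ± 0.04 in siERG cells and 0.18 ± 0.04 in siControl cells by its brightest probe set, but its other 2 probe sets changed by -0.41 to -0.10 and by -0.12 to -0.11, so its direction was not settled. The siERG call of RFC5 was lost without any 1 of 10 VCaP arrays (all but siERG EtOH B and siERG DHT A, adjusted p = 0.0501 to 0.161). The single-strand binding gene RPA1 fell by 0.35 ± 0.04 in siERG and 0.37 ± 0.04 in siControl cells, and its partner RPA2 by 0.30 ± 0.07 and 0.36 ± 0.07. RPA3, the smallest subunit, changed by -0.09 ± 0.07 in siERG cells without passing and fell by 0.21 ± 0.07 in siControl cells, a call lost without siControl EtOH array A or C or siControl DHT array A or B (adjusted p = 0.0592 to 0.104). FEN1, the flap nuclease, and LIG1, the ligase that joins lagging strand fragments, did not pass.

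Among genes of nucleotide supply, RRM1, the large subunit of ribonucleotide reductase, fell with DHT in VCaP by 0.36 ± 0.05 in siERG and 0.32 ± 0.05 in siControl cells. TYMS, thymidylate synthase, fell by 0.38 ± 0.06 and 0.44 ± 0.06, the second not with all its probe sets averaged (-0.23, adjusted p = 0.051). RRM2, the small subunit of the reductase, changed by -0.14 ± 0.06 and -0.10 ± 0.06 and did not pass, nor did thymidine kinase TK1. Among the G1 to S genes, CCNE2 fell by 0.55 ± 0.05 in siERG cells (adjusted p = 3.70e-06) and by 0.39 ± 0.05 in siControl cells (adjusted p = 4.55e-05), while CCNE1, which encodes the other cyclin E, changed by -0.11 ± 0.09 and -0.10 ± 0.09 and did not pass. UHRF1, which guides maintenance methylation to newly made DNA, fell by 0.46 ± 0.12 and 0.66 ± 0.12. E2F1 changed by -0.02 ± 0.21 and -0.21 ± 0.21 and did not pass. Both sets of VCaP cells shared 21 falls and 3 rises (GINS3, POLE2 and, by its brightest probe set, RFC5). No gene was called in opposite directions. This overlap was not counted over all genes, of which 25.3% fell in siERG and 25.5% in siControl cells.

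Whether lowering ERG changed the DHT response was tested as an interaction, the response of siERG cells minus that of siControl cells. By limma, none of the 47 genes passed, where 0.35% of all genes tested did, and at an unadjusted p below 0.05 there were 4 genes above 0 and 1 below (8.51% and 2.13%, beside 5.01% and 5.91% of all genes). The smallest adjusted p was that of MCM2, with an interaction of 0.41 ± 0.11 (adjusted p = 0.195, 95% interval 0.17 to 0.64). For MCM5, which fell in both sets of cells, it was 0.06 ± 0.11, with an interval of -0.18 to 0.30. The 4 groups of MCM2 averaged 546 ± 38.6 in siERG cells with DHT, 819 ± 40.6 in siERG cells with EtOH, 552 ± 35.1 in siControl cells with DHT and 1105 ± 90.2 in siControl cells with EtOH (intensity, SD, n = 3 each), so that its 2 DHT groups met at one level while its EtOH groups lay apart.

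In LNCaP the DHT responses went both ways, and the largest among the 47 genes was the rise of ORC5. The median change of the 47 genes was 0.11 in shETV1 cells, against -0.0034 over all genes, and -0.04 in shControl cells, against -0.01. ORC5, a subunit of the origin recognition complex, had 2199, 2179.8 and 2184 with DHT, against 915, 947 and 925 with EtOH, in shETV1 cells, a rise of 1.22 ± 0.04 (adjusted p = 8.69e-10). In shControl cells it had 2180.3, 2217 and 2231 with DHT and 998, 984 and 939 with EtOH, a rise of 1.17 ± 0.04 (adjusted p = 1.04e-09). The 6 DHT arrays lay in a narrow band far above the 6 EtOH arrays, and the other 2 probe sets of ORC5 changed by 1.26 to 1.33 in shETV1 and 1.22 to 1.28 in shControl cells. CDC6 had 324, 294 and 345 with DHT and 180.0, 171 and 163 with EtOH in shETV1 cells (0.85 ± 0.09, adjusted p = 1.87e-05). In shControl cells it had 301, 273 and 311 with DHT and 165, 151 and 193 with EtOH (0.75 ± 0.09, adjusted p = 4.29e-05). No DHT array of CDC6 reached down to an EtOH array. Of the other licensing genes, MCM5 rose by 0.32 ± 0.07 (adjusted p = 0.00357) and ORC6 by 0.17 ± 0.05 in shETV1 cells, ORC6 not without shETV1 EtOH array B or C or shETV1 DHT array B (adjusted p = 0.0556 to 0.0774), and no further one passed in shControl cells. The summed level of 11 markers of other cell types, COL1A1 and ACTA2 among them, was 659 to 729.9 with DHT and 946 to 982 with EtOH in shETV1 cells, and 673 to 737 with DHT and 882 to 945 with EtOH in shControl cells, and its part in the LNCaP results was not tested.

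The promoters of these 2 genes are shown beside those of the helicase genes, with the E2F words in capitals. In this window ORC5 has none of the 4 words and CDC6 has 1, just after the start site.
ORC5 (chr7:104207964-104208263, minus strand): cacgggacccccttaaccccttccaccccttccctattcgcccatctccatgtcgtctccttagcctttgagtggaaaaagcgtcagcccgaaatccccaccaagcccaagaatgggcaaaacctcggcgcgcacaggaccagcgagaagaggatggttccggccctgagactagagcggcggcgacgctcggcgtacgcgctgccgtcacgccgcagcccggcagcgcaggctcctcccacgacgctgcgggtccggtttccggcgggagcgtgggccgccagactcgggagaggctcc
CDC6 (chr17:40287629-40287928, plus strand): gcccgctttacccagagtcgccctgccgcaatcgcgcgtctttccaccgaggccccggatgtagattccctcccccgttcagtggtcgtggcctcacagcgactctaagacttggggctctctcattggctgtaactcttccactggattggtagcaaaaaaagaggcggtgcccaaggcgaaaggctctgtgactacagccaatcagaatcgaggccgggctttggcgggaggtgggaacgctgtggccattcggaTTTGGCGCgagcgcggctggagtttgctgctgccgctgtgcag

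**Figure D3:**
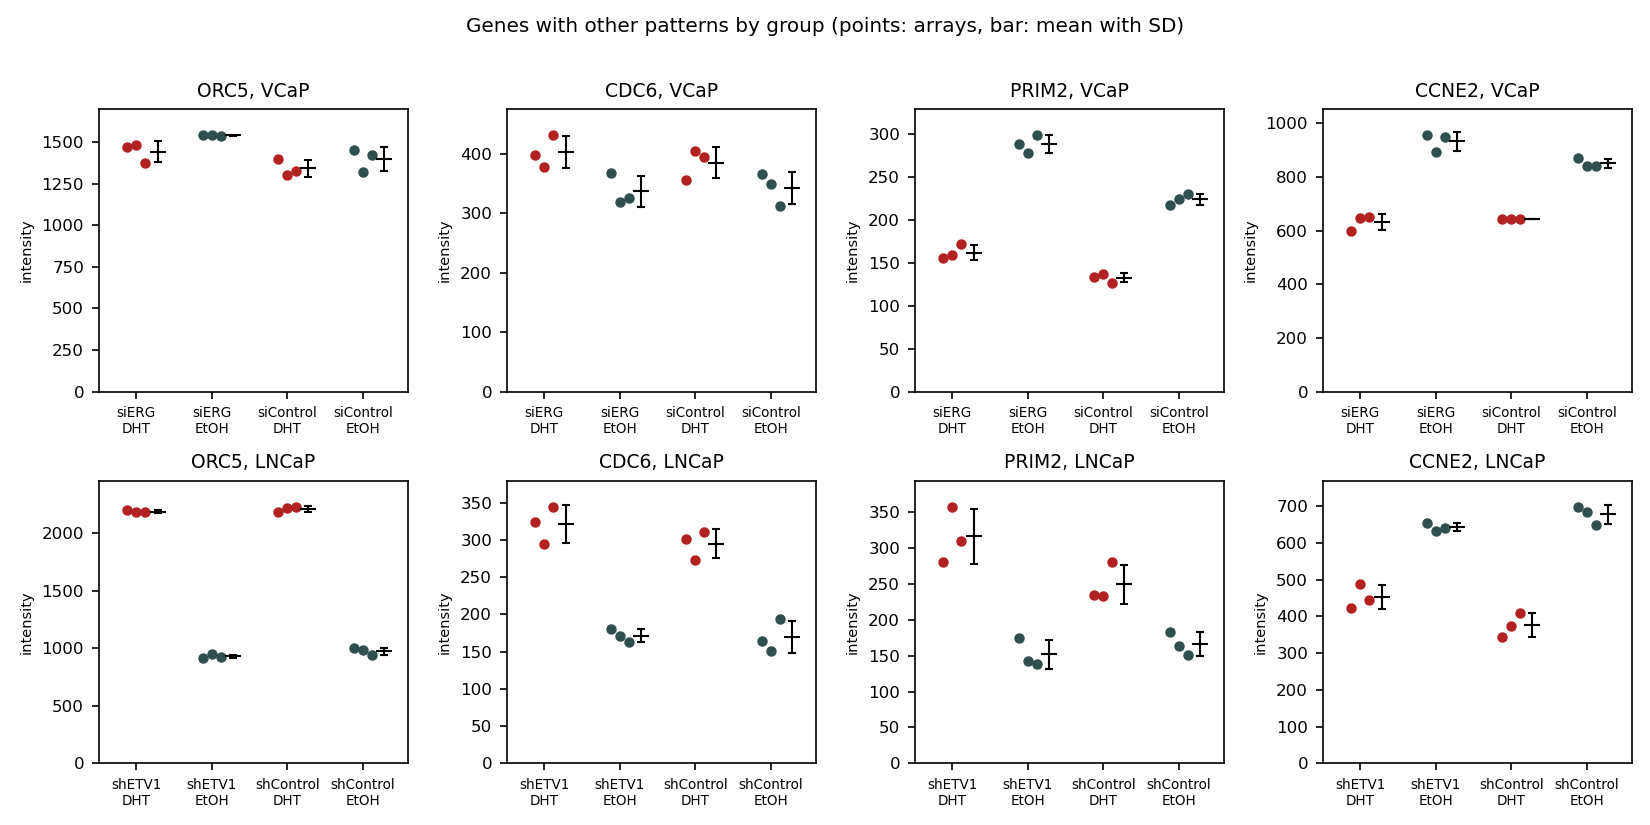
Intensity (vertical axes, linear and starting at 0) of ORC5, CDC6, PRIM2 and CCNE2 in the 4 groups of VCaP (top) and LNCaP (bottom). Points are arrays, red with DHT and dark with EtOH, with the mean and SD (n = 3) beside them. ORC5 and CDC6 rose with DHT in LNCaP, PRIM2 moved in opposite directions in the lines, and CCNE2 fell in both.

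PRIM2, read by 1 probe set, rose with DHT in LNCaP, the reverse of VCaP. In shETV1 cells it had 281, 358 and 309 with DHT, against 175, 143 and 138 with EtOH (0.98 ± 0.11, adjusted p = 4.30e-05). In shControl cells it had 234, 233 and 280.4 with DHT and 183, 163 and 151 with EtOH (0.55 ± 0.11, adjusted p = 0.00251). The groups did not overlap in either set of cells. Its partner PRIM1 changed by 0.02 ± 0.08 and -0.16 ± 0.08 in shETV1 and shControl cells and did not pass. POLA1 and POLE2 rose by 0.18 ± 0.06 and 0.22 ± 0.06 in shETV1 cells, POLA1 not without shETV1 EtOH array B or C or shETV1 DHT array A or C (adjusted p = 0.0604 to 0.0932). POLD2 rose by 0.19 ± 0.07 in shControl cells, a call lost without any 1 of 6 arrays (shControl EtOH B or C, shControl DHT A or C, shETV1 EtOH A, shETV1 DHT A, adjusted p = 0.051 to 0.142). FEN1 rose by 0.32 ± 0.04 in shETV1 cells, and in shControl cells it had 1614, 1617 and 1638 with DHT and 1305, 1276 and 1329 with EtOH, a rise of 0.31 ± 0.04 (adjusted p = 1.39e-04). Its arrays were close together within each of these groups.

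CCNE2, a cyclin E gene, was the member that fell most with DHT in LNCaP. It had 422, 488 and 445 with DHT, against 655, 633 and 641 with EtOH, in shETV1 cells, a fall of 0.50 ± 0.07 (adjusted p = 1.38e-04). In shControl cells it had 345, 375 and 409 with DHT and 699, 684 and 649.6 with EtOH, a fall of 0.83 ± 0.07 (adjusted p = 2.38e-06). Every DHT array lay well below every EtOH array. CCNE1 changed by -0.06 ± 0.06 in shETV1 cells without passing and fell by 0.20 ± 0.06 in shControl cells, a call lost without shControl EtOH array C or shControl DHT array A or C (adjusted p = 0.0538 to 0.0672). UHRF1 had 493, 462 and 529.7 with DHT and 357, 320.0 and 342 with EtOH in shETV1 cells, a rise of 0.52 ± 0.07 (adjusted p = 9.01e-05), while its change of 0.15 ± 0.07 in shControl cells did not pass. GINS2 had 471, 423 and 467 with DHT and 345, 338 and 303 with EtOH in shETV1 cells (0.45 ± 0.06, adjusted p = 1.81e-04) and rose by 0.27 ± 0.06 in shControl cells, calls lost when all its probe sets were averaged (adjusted p = 0.171 and 0.195). The DHT arrays of both genes lay above their EtOH arrays in shETV1 cells.

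The other calls with DHT in LNCaP were small. RFC5 had 1533, 1578 and 1482 with DHT and 1231, 1365 and 1197 with EtOH in shControl cells (0.27 ± 0.06, adjusted p = 0.00367), with groups apart, but its other probe sets changed by -0.11 to 0.01. RFC3 rose by 0.35 ± 0.05 in shETV1 and 0.20 ± 0.05 in shControl cells, the second not with all its probe sets averaged (-0.01, adjusted p = 0.878). GINS3 rose by 0.36 ± 0.12 and 0.35 ± 0.12, with overlapping arrays in shControl cells. Its calls were lost without any 1 of 5 shETV1 arrays (all but DHT A) or of 4 shControl arrays (EtOH B or C, DHT A or C), with adjusted p = 0.0669 to 0.109. MCM10 rose by 0.30 ± 0.09 in shETV1 cells, not without shETV1 EtOH array A or DHT array A, and RRM2 by 0.18 ± 0.05, not without shETV1 EtOH array C or DHT array C (adjusted p = 0.0533 to 0.07). RPA1 fell by 0.20 ± 0.04 in shETV1 and 0.19 ± 0.04 in shControl cells, calls lost with all its probe sets averaged (adjusted p = 0.283 and 0.65). In shControl cells RFC4 fell by 0.17 ± 0.04, TYMS by 0.20 ± 0.06 and RRM1 by 0.13 ± 0.05. The TYMS call was lost without shControl EtOH array A or B or shControl DHT array C (adjusted p = 0.0679 to 0.0934), and that of RRM1 without any 1 of 9 LNCaP arrays (all but shControl EtOH C, shControl DHT C and shETV1 DHT B, adjusted p = 0.0525 to 0.131). The other 25 genes, MCM2, MCM3, MCM4, MCM6 and MCM7 among them, passed in neither set of LNCaP cells. The balance of calls moved with the scaling. In shETV1 cells 14 rose and 2 fell as deposited, and 12 rose and 4 fell after quantile normalization. In shControl cells 9 rose and 6 fell as deposited. There 8 rose and 12 fell after quantile normalization, and 10 rose and 4 fell with arrays centred on their medians. The shares of all genes after these scalings are not given here.

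The interaction of shETV1 and DHT, the response of shETV1 cells minus that of shControl cells, had 0 of 47 genes past the threshold by limma, where 0.101% of all genes passed. At an unadjusted p below 0.05 there were 12 genes above 0 and 0 below (25.5% and 0%, beside 5.43% and 2.09% of all genes). Of the 47 values 37 (78.7%) were above 0, beside 55.2% over all genes, with a median of 0.12, against 0.01 over all genes. The smallest adjusted p was that of UHRF1 (0.37 ± 0.09, adjusted p = 0.259, 95% interval 0.17 to 0.58), followed by ORC6 (0.25 ± 0.07, adjusted p = 0.343). The groups of UHRF1 averaged 495 ± 33.7 in shETV1 cells with DHT, 339 ± 18.4 in shETV1 cells with EtOH, 373 ± 25.9 in shControl cells with DHT and 334 ± 12.8 in shControl cells with EtOH (intensity, SD, n = 3 each). All 47 values come from the same 12 arrays, so they are not separate observations.

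The responses of the lines to DHT were then set against each other as VCaP minus LNCaP, in a fit of all 24 arrays and the 12293 genes tested in both lines. In knockdown cells 24 of the 47 responses differed (22 lower and 2 higher in VCaP), where 31.7% of all genes differed (18.4% lower and 13.2% higher). In control cells 25 differed (22 lower and 3 higher in VCaP), where 31.9% of all genes did (17.6% lower and 14.3% higher). Under every alternative setting in which the gene had a value, 16 of the 24 and 15 of the 25 passed. Without probe sets ending in _x_at or _s_at, 18 of the 24 and 18 of the 25 could be tested. Among the lower responses, leaving out 1 array ended the calls of POLA2 (for 8 of 24 arrays) and TYMS (6) in knockdown cells. The same held for ORC1 (9) and RRM1 (7) in control cells. The median difference over the 47 genes was -0.27 in knockdown and -0.22 in control cells, against -0.02 and -0.01 over all genes. Of the helicase genes, MCM2 to MCM6 had lower responses in VCaP in both sets of cells, and MCM7 in control cells, the last not without siControl EtOH A, siControl DHT B, shControl EtOH A or shControl DHT A (adjusted p = 0.0532 to 0.0636). ORC5 differed by -1.32 ± 0.06 in knockdown cells (adjusted p = 1.52e-12) and -1.23 ± 0.06 in control cells (adjusted p = 4.67e-12). It did not pass in VCaP and rose in LNCaP. PRIM2 differed by -1.76 ± 0.13 in knockdown cells (adjusted p = 1.84e-09) and -1.24 ± 0.13 in control cells (adjusted p = 2.84e-07), and it fell in VCaP and rose in LNCaP. MCM5 differed by -1.18 ± 0.11 and -0.95 ± 0.11 (adjusted p = 4.25e-08 and 8.21e-07). The next smallest adjusted p-values were those of MCM4 in knockdown cells (-0.90 ± 0.10, adjusted p = 6.17e-07) and MCM3 in control cells (-0.86 ± 0.12, adjusted p = 1.57e-05).

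The intensities of MCM4 and MCM3 lie behind these differences. MCM4 in VCaP siERG cells had 1117, 1089.7 and 902 with DHT and 1946, 1862 and 1943 with EtOH, against 936, 867 and 954 with DHT and 901, 892 and 922 with EtOH in LNCaP shETV1 cells. MCM3 in VCaP siControl cells had 451, 440.5 and 476 with DHT and 776, 705 and 791 with EtOH, against 437, 383 and 418 with DHT and 355, 397 and 363 with EtOH in LNCaP shControl cells. For both genes DHT and EtOH arrays were far apart in VCaP and overlapped in LNCaP. The response was higher in VCaP in knockdown cells for POLE (0.41 ± 0.14) and TK1 (0.25 ± 0.09), and in control cells for POLE (0.39 ± 0.14), POLE2 (0.35 ± 0.07) and CCNE2 (0.43 ± 0.08), which fell less in VCaP than in LNCaP. The calls of POLE and TK1 were each lost on leaving out any 1 of several arrays. In knockdown cells the changes were then still 0.28 to 0.41 for POLE and 0.23 to 0.25 for TK1. In knockdown cells POLE was lost without siERG EtOH B or C, siERG DHT B, shETV1 EtOH B or C or shETV1 DHT A, and TK1 without siERG EtOH A or B, siERG DHT B, shETV1 EtOH A or C or shETV1 DHT B (adjusted p = 0.051 to 0.0929). In control cells POLE was lost without any siControl EtOH array, siControl DHT A or C, shControl EtOH B or C or shControl DHT B or C (adjusted p = 0.0565 to 0.0919).

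Across the 47 genes the DHT responses of control VCaP and control LNCaP cells, which share no array, had a Pearson correlation of 0.241 and a Spearman correlation of 0.28, against 0.483 and 0.44 over the 12293 genes, as a description of genes that share the arrays of their line. In knockdown cells MCM5, MCM10, RFC3, PRIM2 and UHRF1 fell in VCaP and rose in LNCaP, RPA1 and CCNE2 fell in both, and CDC6, GINS3 and POLE2 rose in both. In control cells RFC3, PRIM2 and POLD2 fell in VCaP and rose in LNCaP, 5 genes fell in both lines (RFC4, RPA1, RRM1, TYMS and CCNE2), and GINS3 and, by its brightest probe set, RFC5 rose in both. With all probe sets averaged, RFC3 and RFC5 passed in neither line in control cells, RPA1 and RRM1 not in LNCaP and TYMS not in VCaP. A further 18 fell in VCaP control cells without passing in LNCaP, and 4 (ORC5, CDC6, GINS2 and FEN1) rose in LNCaP without passing in VCaP. The overlaps of calls between the lines were not counted over all genes.

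**Figure D4:**
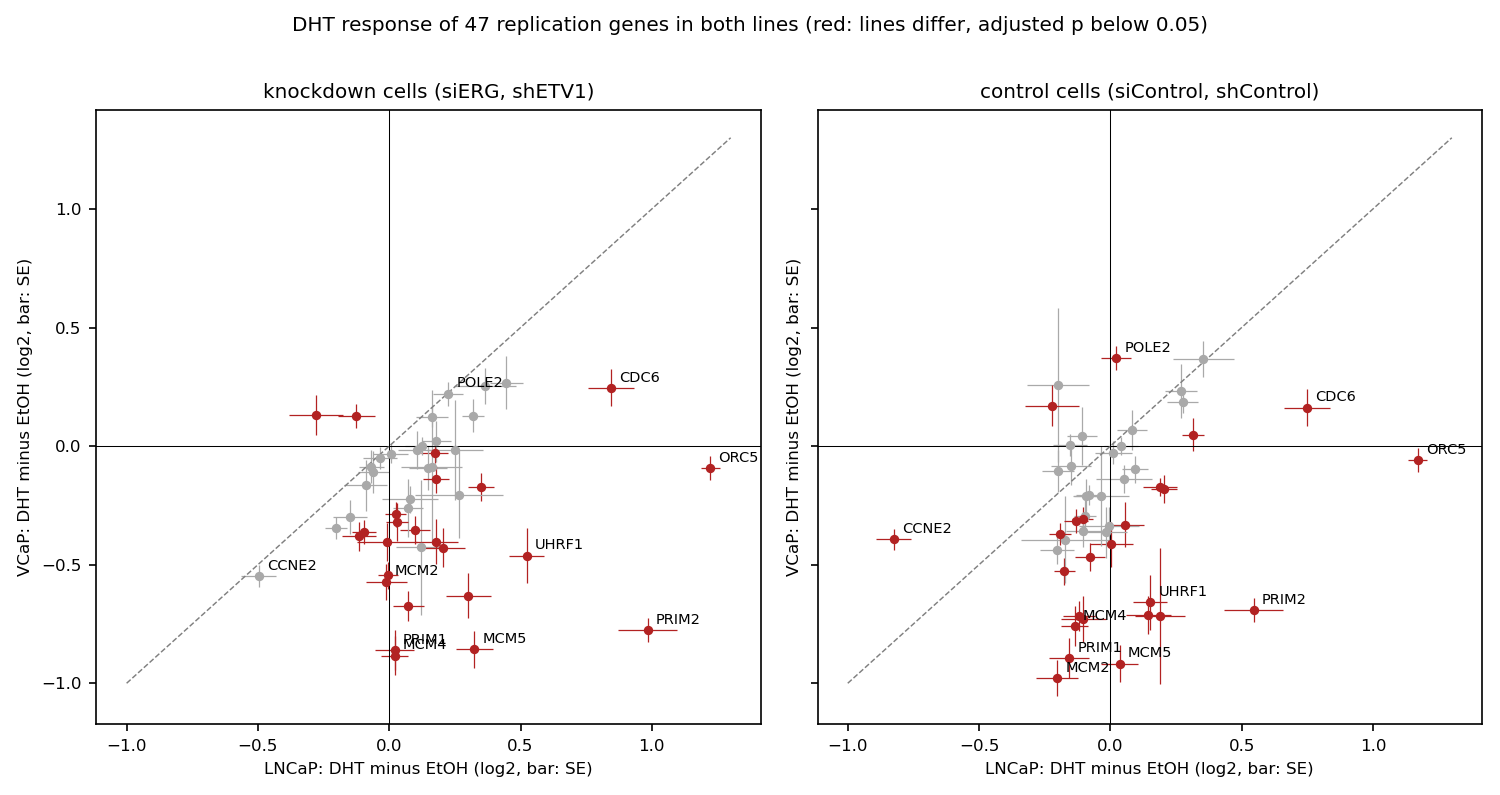
DHT response (log2, DHT minus EtOH) of each of the 47 genes in VCaP (vertical axis) against LNCaP (horizontal axis), in knockdown cells (left) and control cells (right), with standard errors as bars and a dashed line where both are equal. Red points are the 24 and 25 genes whose responses differed between the lines. Most red points lie below the dashed line, and ORC5 stands far to the right in LNCaP and near 0 in VCaP.

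Lowering ERG changed 7 of the 47 genes in cells with EtOH, most of them helicase genes. Of these 6 fell and 1 rose in siERG cells, where 5.92% of all genes fell and 5.36% rose, and 5 of the 6 that fell were helicase genes. With arrays centred on their medians 11 fell and 1 rose, and with array weights 9 fell and 3 rose. The shares of all genes under these settings are not given here. MCM5 had 526, 589 and 609 in siERG cells, against 828, 848 and 817 in siControl cells, a fall of 0.52 ± 0.08 (adjusted p = 0.00192). MCM2 had 834, 773 and 850.2 in siERG and 1199.9, 1021 and 1094 in siControl cells (-0.42 ± 0.08, adjusted p = 0.00563). Neither gene's groups overlapped. MCM3 had 646, 499.6 and 574 in siERG and 776, 705 and 791 in siControl cells (-0.40 ± 0.08, adjusted p = 0.0111). MCM7 had 1456, 1364 and 1252 in siERG and 2005, 1654 and 1733 in siControl cells (-0.40 ± 0.09, adjusted p = 0.0225), and both groups were wide but apart, as were those of MCM3. MCM6 fell by 0.26 ± 0.06 (adjusted p = 0.0281), and MCM4 changed by -0.10 ± 0.08 and did not pass.

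The primase genes moved apart after siERG. PRIM1 had 458, 397 and 406 in siERG cells, against 539, 524 and 539 in siControl cells, with EtOH (-0.34 ± 0.08, adjusted p = 0.0299). PRIM2 had 287, 278 and 299 in siERG and 217, 224 and 229.9 in siControl cells, a rise of 0.34 ± 0.05 (adjusted p = 0.00175). Each gene's groups were apart, in opposite directions. With DHT 2 genes passed, where 9.05% of all genes did. MCM5 had 339, 309.5 and 283 in siERG and 415, 414 and 471 in siControl cells (-0.46 ± 0.08, adjusted p = 0.00418). PRIM2 had 155, 159 and 171 in siERG and 133, 137 and 127 in siControl cells (0.26 ± 0.05, adjusted p = 0.00903). Both genes' groups were apart, and PRIM1 came next (-0.30 ± 0.08, adjusted p = 0.0513). The siERG falls with EtOH and the DHT falls in siControl cells use the same siControl EtOH arrays, so they are not separate evidence.

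None of these 9 calls passed under every alternative setting, where 14 of the 26 calls with DHT in siERG cells and 21 of the 29 in siControl cells did. These tallies count only settings in which a gene had a value. Without probe sets ending in _x_at or _s_at, 22 of the 26 and 23 of the 29 calls could be tested. With EtOH, the falls of MCM6 and PRIM1 were each lost without any 1 of 5 arrays (siControl EtOH A, B or C, siERG EtOH B or C, adjusted p = 0.0597 to 0.104) and that of MCM7 without siControl EtOH A or siERG EtOH B or C (adjusted p = 0.0651 to 0.0856). The count of 7 calls became 4 without any 1 of these last 3 arrays. With EtOH, MCM6 was also lost with all probe sets averaged (adjusted p = 0.053), without the intensity filter (0.0618) and in a fit of only those groups (0.0653). MCM3 was lost in that same fit (0.0567), PRIM1 without the filter (0.0616) and with the replicate block (0.0614), and MCM5 without probe sets ending in _x_at or _s_at (-0.57, adjusted p = 0.162). With DHT, MCM5 was lost with all probe sets averaged (adjusted p = 0.218) and without those probe sets (-0.11, adjusted p = 0.827), and PRIM2 in fits of only those groups and of all 24 arrays (adjusted p = 0.0718 and 0.0733). The GAPDH 3′ to 5′ ratio was 1.09 ± 0.0237 in siERG and 1.05 ± 0.0128 in siControl cells with EtOH, and 1.03 ± 0.00728 and 1.07 ± 0.00805 with DHT (SD, n = 3 each, exact permutation p = 0.1 in both, the smallest possible). The ACTB ratio was 2.84 ± 0.308 in siERG and 3.5 ± 0.0571 in siControl cells with DHT (exact permutation p = 0.1). When the GAPDH ratio entered the fit as a covariate, 1 of the 47 genes passed with EtOH and none with DHT.

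**Figure D5:**
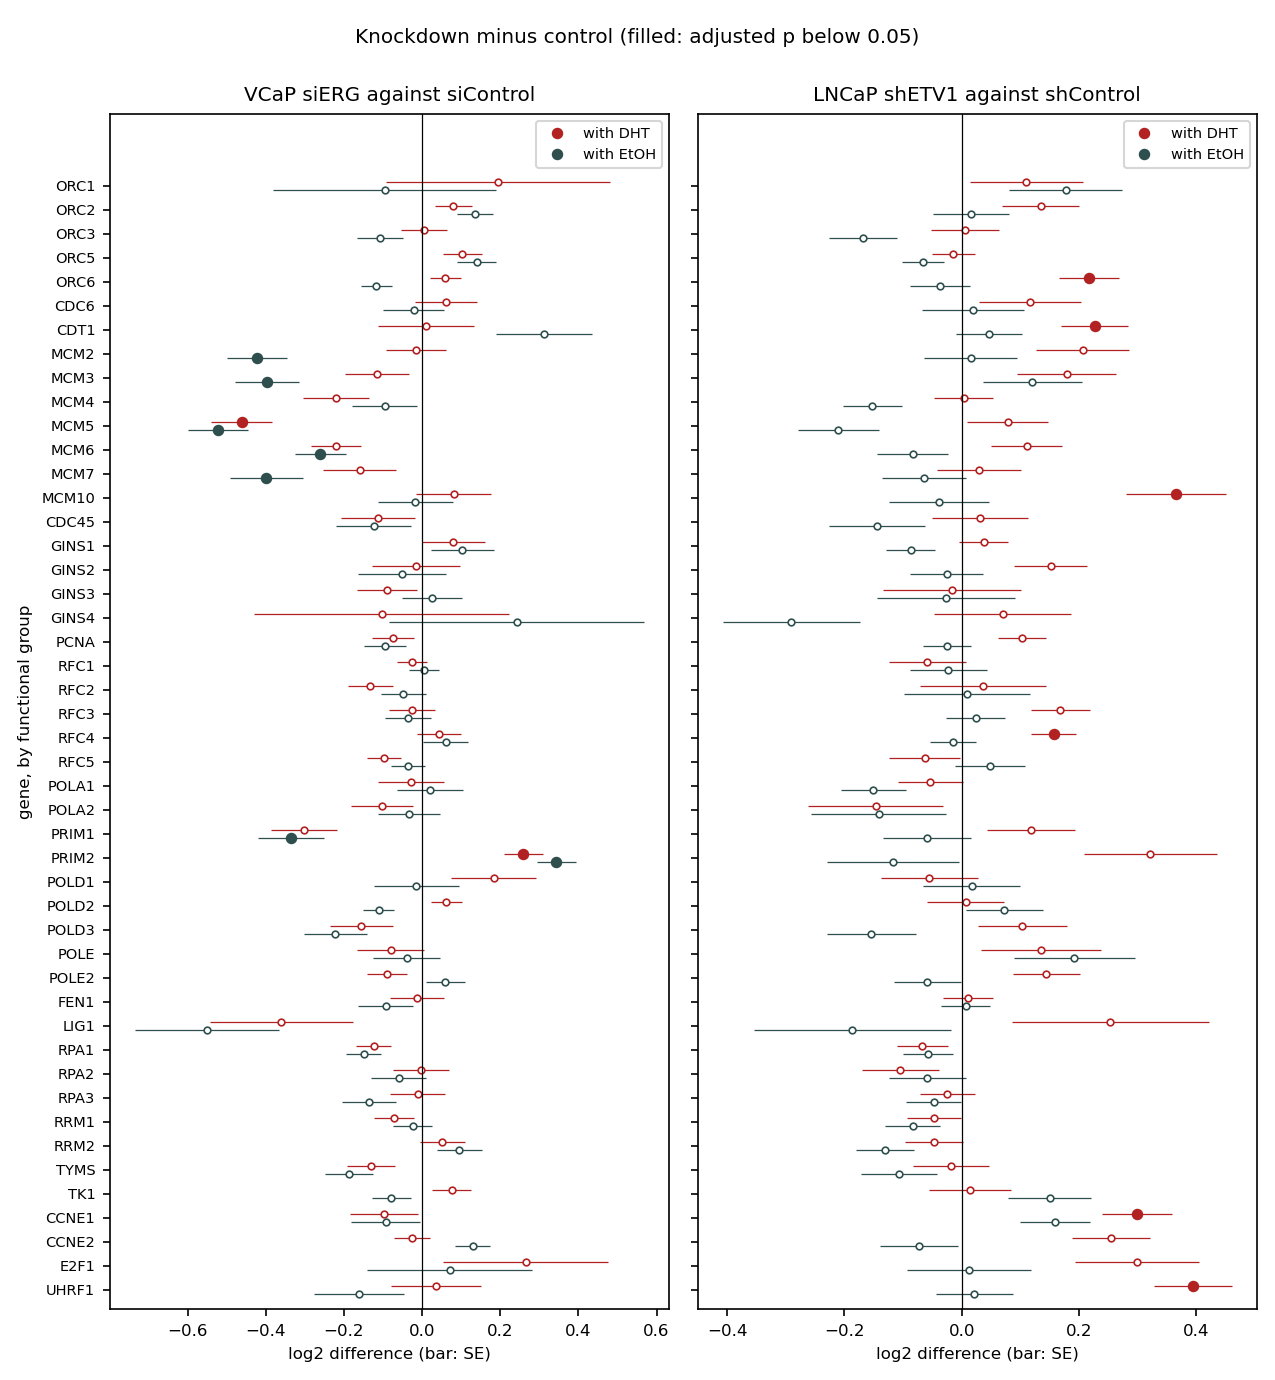
Change of each gene on knockdown (log2, siERG minus siControl in VCaP on the left, shETV1 minus shControl in LNCaP on the right), red with DHT and dark with EtOH, with standard errors as bars. Filled points have an adjusted p below 0.05. In VCaP the filled points are MCM2, MCM3, MCM5, MCM6, MCM7, PRIM1 and PRIM2, and in LNCaP 6 red points to the right of 0.

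Lowering ETV1 left the replication genes without a call in LNCaP cells with EtOH. By limma 0 of 47 passed, where 4.2% of all genes did, and at an unadjusted p below 0.05 there were 1 above 0 and 6 below (2.13% and 12.8%, beside 8.01% and 10.1% of all genes). The smallest adjusted p-values were those of 2 helicase genes. MCM4 had 901, 892 and 922 in shETV1 cells, against 989.7, 991 and 1044 in shControl cells (-0.15 ± 0.05, adjusted p = 0.129). MCM5 had 367, 319 and 359 in shETV1 and 444, 387 and 385 in shControl cells (-0.21 ± 0.07, adjusted p = 0.133). The arrays of both genes did not overlap, yet neither change passed over all genes.

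With DHT 6 genes rose in shETV1 cells and none fell, where 2.67% of all genes rose and 2.49% fell. UHRF1 had 493, 462 and 529.7 in shETV1 cells, against 388, 343 and 388 in shControl cells (0.39 ± 0.07, adjusted p = 0.00763). MCM10 had 186, 156 and 159 in shETV1 and 128, 108 and 144 in shControl cells (0.37 ± 0.09, adjusted p = 0.0368). CCNE1 had 414, 421 and 392 in shETV1 and 327, 335 and 326 in shControl cells (0.30 ± 0.06, adjusted p = 0.0185). These 3 genes act at different steps, maintenance of DNA methylation, helicase activation and entry into S phase, and their groups did not overlap. CDT1, the licensing factor, had 129.9, 145 and 131 in shETV1 and 116, 112 and 112 in shControl cells (0.23 ± 0.06, adjusted p = 0.0464), but its other probe set changed by -0.05. ORC6 had 863, 913 and 852 in shETV1 and 802, 716 and 738 in shControl cells (0.22 ± 0.05, adjusted p = 0.0382). RFC4 had 908, 903 and 892 in shETV1 and 808, 783 and 830.2 in shControl cells (0.16 ± 0.04, adjusted p = 0.0446). All 6 rises lay close to the threshold except that of UHRF1.

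Apart from that of UHRF1, the rises after shETV1 lay near the threshold and were lost on leaving out any 1 of several arrays. Some of these were EtOH arrays outside the comparison. Without such an array the change of CDT1 stayed at 0.23, with adjusted p = 0.0562 to 0.0672 where its call was lost. With 1 array left out, the calls were lost for CDT1 without any of 11 arrays (all but shETV1 EtOH C), for MCM10 without any of 11 (all but shControl DHT C) and for RFC4 without any of 11 (all but shControl EtOH B). ORC6 was lost without any of 8 (all but shETV1 EtOH A or C, shControl EtOH C and shControl DHT A) and CCNE1 without shETV1 DHT A or B or any shControl DHT array, with adjusted p = 0.0501 to 0.145 over these. UHRF1 passed without each array, but not in a fit of only those 2 groups (adjusted p = 0.0533). Between 1 and 4 genes then passed in place of 6. The ACTB 3′ to 5′ ratio was 3.07 ± 0.232 in shETV1 and 2.76 ± 0.136 in shControl cells with DHT (SD, n = 3 each, exact permutation p = 0.2), and the GAPDH ratio 1.08 ± 0.00897 and 1.09 ± 0.00259 (exact permutation p = 0.1). With the ACTB ratio as a covariate 1 gene passed, and with the GAPDH ratio 3.

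Other genes of DNA replication and of the G1 to S step that are not among the 47 were counted from a list of 55 genes with a probe set. In VCaP 24 of the 55 (43.6%) fell and 7 (12.7%) rose with DHT in siERG cells, beside 25.3% and 20.1% of all genes, and 25 (45.5%) fell and 5 (9.09%) rose in siControl cells, beside 25.5% and 19.6%. SKP2, which marks the inhibitor p27 for destruction, fell by 0.72 ± 0.05 in siERG and 0.78 ± 0.05 in siControl cells, E2F3, a transcription factor of S phase entry, by 0.75 ± 0.05 and 0.76 ± 0.05, and GMNN, the inhibitor of CDT1, by 0.62 ± 0.05 and 0.47 ± 0.05. CDC7, the kinase that fires licensed origins, rose by 0.50 ± 0.06 and 0.39 ± 0.06, and DONSON, a replication fork protein, by 0.32 ± 0.04 and 0.34 ± 0.04. CDKN1A, the inhibitor p21 of cyclin-dependent kinases, rose by 0.56 ± 0.07 in siERG cells, and CDK2, the partner of cyclin E, by 0.31 ± 0.05 in siControl cells. The change of CDKN1A in siControl cells and that of CDK2 in siERG cells are not given here. None of the 55 passed for the interaction of siERG and DHT, so neither rise is shown to be confined to its set of cells. In LNCaP 10 of the 55 (18.2%) fell and 9 (16.4%) rose with DHT in shETV1 cells, beside 19% and 18.9% of all genes, and 10 (18.2%) fell and 7 (12.7%) rose in shControl cells, beside 22.3% and 18.6%. The 55 thus showed no excess of calls over all genes in LNCaP. CDK2 rose there by 0.54 ± 0.06 and 0.55 ± 0.06, and MCM8, a relative of the helicase genes that works in repair, by 0.48 ± 0.04 and 0.33 ± 0.04. CDKN1A fell by 0.40 ± 0.04 and 0.38 ± 0.04, RBL2, a pocket protein that holds E2F targets down, by 0.37 ± 0.04 and 0.55 ± 0.04, and TFDP1, the partner of E2F factors, by 0.47 ± 0.05 and 0.32 ± 0.05. The DHT response of CDKN1A was higher in VCaP than in LNCaP by 0.96 ± 0.08 in knockdown and 0.76 ± 0.08 in control cells (adjusted p = 2.18e-08 and 5.41e-07).

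With EtOH 3 of the 55 rose (5.45%) and 1 fell (1.82%) in siERG cells, beside 5.36% and 5.92% of all genes, GMNN by 0.29 ± 0.05 (adjusted p = 0.00343), E2F7 by 0.21 ± 0.06, CDKN1C by 0.18 ± 0.05 and the D cyclin gene CCND3 by -0.24 ± 0.07, and with DHT 1 fell, DBF4, the partner of CDC7 (-0.16 ± 0.04). In shETV1 cells TFDP1 (0.27 ± 0.05) and MYBL2 (0.18 ± 0.04) rose with EtOH, and E2F7 rose (0.32 ± 0.06) and POLD4 fell (-0.17 ± 0.04) with DHT. These were 3.64% of the 55 with EtOH, beside 4.2% of all genes in either direction. With DHT 1.82% rose and 1.82% fell, beside 2.67% and 2.49%. The 1 siERG call with DHT was 1.82% of the 55, beside 9.05% of all genes in either direction. Of 18 genes of mitosis, 11 (61.1%) fell and 0 rose with DHT in VCaP siERG cells and likewise in siControl cells. Of all genes 25.3% and 25.5% fell and 20.1% and 19.6% rose. Among the mitosis genes that fell were the mitotic kinases CDK1 (falls of 0.44 ± 0.05 and 0.37 ± 0.05) and TTK (0.57 ± 0.08 and 0.54 ± 0.08). In LNCaP 4 (22.2%) fell and 1 rose (PLK1, by 0.54 ± 0.10) with DHT in shETV1 cells, where 19% of all genes fell and 18.9% rose. In shControl cells 6 (33.3%) fell and 0 rose, where 22.3% of all genes fell and 18.6% rose. BUB1B, a checkpoint kinase gene, fell by 0.23 ± 0.05 in shETV1 and 0.29 ± 0.05 in shControl cells. In VCaP siControl cells, with 25.5% of all genes falling, the share that fell with DHT was 61.1% among the mitosis genes and 45.5% among the 55, beside 55.3% of the 47.

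Most genes were read by more than 1 probe set, which gave a check within the arrays. Of 101 calls over the comparisons of 2 groups, 55 were for genes with another probe set above the array median, and in 51 of these all the other probe sets had the same sign. The 4 exceptions were the 3 calls of RFC5 and that of CDT1 after shETV1 with DHT. MCM2, ORC3, CDC45 and POLE were each read by 1 probe set ending in _s_at and ORC6 by 1 ending in _x_at, kinds that can bind more than 1 transcript.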

How the data were processed

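RNA of VCaP and LNCaP cells was hybridised to 24 one-colour arrays. The authors deposited 1 processed intensity per probe set and array, and the sources used here do not give how the scans were summarised or scaled. The median intensity per array was 47.57 to 53.25 in VCaP and 42.73 to 44.78 in LNCaP. Depth has no meaning for arrays, and 3 arrays per group set the precision.

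Values were taken as log2(intensity + 16). GEO's platform annotation named 1 gene for 41091 of 54675 probe sets, several for 1801, and the brightest probe set of each gene, on average across the arrays, was used. Genes were tested in a line where they lay above the array median on at least 3 of 12 arrays. Each line was fitted with limma 3.58.1 (R 4.3.3) over its 4 groups, line differences over all 24 arrays, with Benjamini-Hochberg adjustment over all genes tested. The fit was first tested on simulated data. RNA quality ratios were compared with two-sided exact permutation tests.

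The members and all lists (55 companion genes of 56 listed, 18 mitosis genes, 11 markers of other cells of 12 listed) were chosen with earlier results of these data known. Any of the 47 genes could be named. Values per array are given for up to 6 genes per comparison of 2 groups, those with the largest changes among the called genes whose groups did not overlap, or for the 2 with the smallest adjusted p where none passed, and for the interactions and line differences up to 4 genes with the smallest adjusted p. Up to 3 companion and mitosis genes were named in each direction. Per-array values of ORC1 in VCaP siControl cells were added after they were seen.

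Alternatives were another pseudocount, other filters and scalings, all probe sets averaged or without those ending in _x_at or _s_at, other limma settings, RNA quality as a covariate, a stricter threshold, the replicate letter as a block and each array left out. The letters A to C do not pair the arrays (correlations of same-letter deviations of -0.219 to 0.124).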

Additional observations from a re-analysis of the deposited data

Results flagged for a closer look

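The DHT responses of the lines differed, by the limma test of the difference itself, in 24 genes of knockdown cells and 25 of control cells. The values that differed with the smallest adjusted p, as VCaP minus LNCaP on the log2 scale, were -1.32 for ORC5, -1.76 for PRIM2, -1.18 for MCM5 and -0.90 for MCM4 in knockdown cells, and -1.23 for ORC5, -1.24 for PRIM2, -0.95 for MCM5 and -0.86 for MCM3 in control cells. ORC5 rose with DHT in LNCaP alone, PRIM2 fell in VCaP and rose in LNCaP, and the MCM genes fell in VCaP. Cell line, kind of RNA interference and any separate handling of the lines cannot be told apart in these differences.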

How the results depend on the processing

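The counts with DHT stayed within 1.5 times under every alternative, except that the GAPDH ratio as a covariate lowered VCaP DHT against EtOH, siERG, to 15 genes in place of 26. With 1 array left out they were 23 to 26 in VCaP siERG and 25 to 30 in siControl cells, 13 to 17 in LNCaP shETV1 and 12 to 17 in shControl cells, and the line differences 20 to 26 in knockdown and 19 to 27 in control cells. Both interactions stayed at 0 under each alternative. VCaP siERG against siControl, EtOH, had 7 genes, but 4 without probe sets ending in _x_at or _s_at, 12 with median centring or array weights, 1 with the GAPDH ratio, 3 at an adjusted p below 0.01 and 4 to 10 with 1 array left out. Without those probe sets only 5 of the 7 could be tested, and 1 of these was lost. VCaP siERG against siControl, DHT, had 2 genes, but 1 with all probe sets averaged, without _x_at and _s_at probe sets or in a fit of only those groups, 4 with the filter at the 60th percentile, quantile normalization, a trended robust variance or all 24 arrays, 5 with array weights, 0 with either RNA ratio (limma in each) and 2 to 3 with 1 array left out. LNCaP shETV1 against shControl, EtOH, had 0, and 1 without _x_at and _s_at probe sets. LNCaP shETV1 against shControl, DHT, had 6, but 3 without those probe sets, with either other scaling or with the GAPDH ratio, 2 with the replicate block, 1 without a filter, with the ACTB ratio, in a fit of only those groups or at an adjusted p below 0.01, and 1 to 4 with 1 array left out. Of these 6, only 4 could be tested without those probe sets, and 1 of the 4 was lost. With all probe sets averaged, RFC5 turned to -0.13 in VCaP siERG cells and -0.0142 in siControl cells, and RFC3 to -0.0140 with DHT in LNCaP shControl cells. The replicate block gave 26 and 31 genes with DHT in VCaP siERG and siControl cells, 17 and 16 in LNCaP shETV1 and shControl cells, 23 and 24 for the line differences in knockdown and control cells, and 8 for siERG with EtOH. It lowered LNCaP shETV1 against shControl, DHT, from 6 genes to 2 and changed no other count by over 1.5 times. Whether arrays of the same letter were paired is not stated. Median centring also moved the balance in VCaP siERG cells with DHT, to 7 rises and 21 falls in place of 4 and 22. No cause of these shifts was tested, and the counts over all genes under these alternatives are not given here. Dim genes such as ORC1 and GINS4 lie near background, which limits what 3 arrays can show.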
